A study of Homo sapiens with 6 samples.

Results

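UCK2, RRM1, OAZ1, CDK6 and MCM4 act on the growth of dividing cells, OAZ1 as a brake on polyamine synthesis. In that order they act in pyrimidine salvage, deoxynucleotide synthesis, polyamine control, the G1 kinase step and the licensing of replication origins. They were taken by symbol from the authors' deposited table of alternative polyadenylation (APA), which held 2723 genes, and all 5 had a row in it. The members had been chosen by their values of PAS usage and adjusted p in this same table, so these values are a description and no test was made on them. The cells were of the HL-60 line, established from a human promyelocytic leukemia, and all had been given 3 nM PMA for 6 h, a phorbol ester that drives them toward macrophages. There were 3 samples of OE-CFIm25 cells, which carried a lentiviral CFIm25 coding sequence under the EF-1a promoter, and 3 samples of OE-control cells, which carried the same vector without an insert. Both groups thus had the puromycin marker of the vector and had been selected with the drug before clones were grown on, and as both had been given PMA, no untreated cells entered the comparison. The authors counted QuantSeq 3’ end reads at annotated poly(A) sites (PASs). For each gene they gave 1 relative expression difference (RED), which subtracts the OE-control value of log2 (distal PAS reads / proximal PAS reads) from the OE-CFIm25 value. The distal PAS (dPAS) makes the long mRNA and the proximal PAS (pPAS) the short one, so RED above 0 stands for relatively more of the long mRNA in OE-CFIm25 cells. The table holds the groups' difference only, so the values of single samples, their spread, the level of any gene (CFIm25 included) and the markers of the cell type are not analysed here.

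Cells that divide must double their DNA, and these genes act in the supply of building blocks, in its control, or as switches. UCK2 phosphorylates uridine and cytidine, the entry step of pyrimidine salvage. RRM1 is the large catalytic subunit of ribonucleotide reductase, which turns ribonucleotides into deoxynucleotides. OAZ1 is antizyme, which binds ornithine decarboxylase, sends it to the proteasome and so holds back the synthesis of polyamines. CDK6 pairs with D-type cyclins and phosphorylates RB in G1, and MCM4 is a subunit of the helicase that is loaded on replication origins. Leukemia cells leave the cell cycle as they become macrophages. CFIm25 binds UGUA upstream of PASs and takes part in the choice between them. In each member both PASs followed the stop codon within the terminal exon, so that the short and the long mRNA have the same coding sequence.

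The sequences at the PASs are shown first, because the poly(A) signal and UGUA are what a cleavage site offers to the processing machinery. They are on hg19 (GRCh37), in transcript sense and in DNA letters. Each runs over 30 nt ending at the PAS, and capitals mark the poly(A) signal (AATAAA, or, where neither it nor ATTAAA is present, a single-base variant). The windows are chr1:165877316-165877345 and chr1:165880826-165880855 for UCK2, and chr19:2273209-2273238 and chr19:2273294-2273323 for OAZ1, all on the plus strand. For CDK6, on the minus strand, they are chr7:92243770-92243799 and chr7:92235942-92235971, and the window at the RRM1 dPAS, on the plus strand, is chr11:4160076-4160105.
UCK2 pPAS: agttataaatacatatataTATAAAaaagg
UCK2 dPAS: tttgctgtaAATAAAgacagacaaaaaggc
OAZ1 pPAS: ttgtaatcgtgcaAATAAAcgctcactccg
OAZ1 dPAS: gctttaattctaAATAAAaatttatatttt
CDK6 pPAS: gaagttttatacacacagcaaaaaggagaa
CDK6 dPAS: ttgaaAGTAAAaaaaaaaaatctaatttgg
RRM1 dPAS: ttctgaAATAAAgataaacatttctaagtg
At the pPAS of RRM1 the sequence after the cleavage position stands out. The next window spans chr11:4159811-4159840, with the last 10 nt of the short mRNA in lower case and the 20 nt that follow the PAS in capitals.
RRM1 pPAS with its downstream sequence: aatgcttttgAAAAAAAGAAAAAAAAAACG
No sequence is shown for MCM4. OAZ1 was the member with AATAAA at both PASs, 16 nt upstream of the pPAS and 17 nt upstream of the dPAS. In UCK2, RRM1 and MCM4 the dPAS had AATAAA, at 20, 23 and 15 nt, and the pPAS had neither AATAAA nor ATTAAA in 40 nt. CDK6 had neither hexamer at either PAS.

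The 3’ UTR of UCK2 was lengthened and that of OAZ1 was shortened. CDK6, RRM1 and MCM4 did not pass the thresholds on RED and adjusted p given below. UCK2 had a RED of 0.99, or 1.99-fold more dPAS usage relative to the pPAS in OE-CFIm25 cells, with a deposited adjusted p of 0.0199. OAZ1 had a RED of −0.87, or 1.83-fold less dPAS usage relative to the pPAS, with a deposited adjusted p of 0.0136. The salvage kinase and the brake on polyamine synthesis thus lay on opposite sides of 0. CDK6 had a RED of −0.60, or 1.52-fold less, and its deposited adjusted p of 0.124 missed the threshold. RRM1 (RED 0.02) and MCM4 (RED −0.04) were both close to 0, with a deposited adjusted p of 0.991 each.

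**Figure D1:**
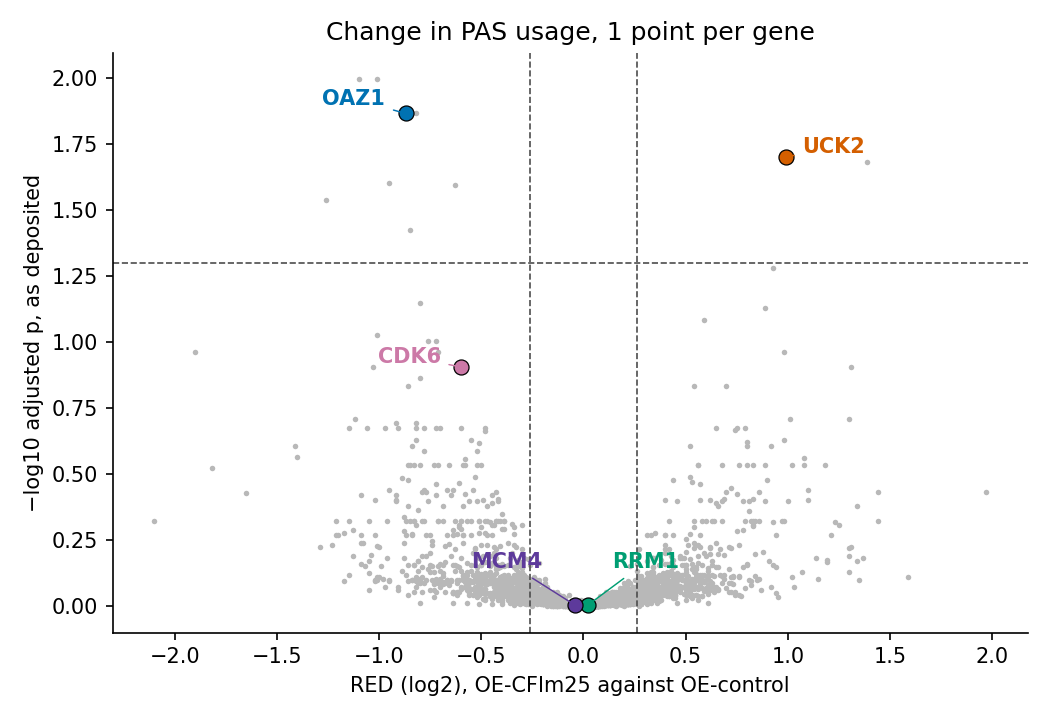
RED of each gene (horizontal axis, log2) against −log10 of the deposited adjusted p (vertical axis), 1 point per gene. Dashed lines mark a RED of log2(1.2) in either direction and an adjusted p of 0.05. UCK2 lies in the upper right at a RED of 0.99, OAZ1 in the upper left at −0.87, CDK6 below the line at −0.60, and RRM1 and MCM4 at the bottom near 0.

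A gene was called where RED was beyond log2(1.2), which is 0.26, with an adjusted p under 0.05. By this rule 10 genes of the table were called, or 0.367% of all, with 0.0734% lengthened and 0.294% shortened. Of the members 2 were called, 1 in each direction, but the rule that chose them used this contrast and nothing is read from the count. At an adjusted p under 0.10, which 0.624% of all genes met together with the RED threshold, these same 2 members were called. The RED threshold alone was passed by 48.8% of all genes and by 3 of the 5 members. The table holds no unadjusted p and no reads per PAS, so the precision of a single RED is unknown. In bulk RNA, fewer cells of a type and less RNA per cell cannot be told apart, nor can a shift of isoforms in every cell from a changed mix of cells that differ in PAS usage.

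Placed among all genes, UCK2 and OAZ1 lay in opposite tails of RED, and RRM1 and MCM4 in the middle. A higher RED than that of UCK2 was listed for 33 genes, whereas 4 genes had a lower adjusted p. For OAZ1, 68 genes had a lower RED and 2 a lower adjusted p. CDK6 ranked below the 10 called genes in adjusted p, with 20 genes of lower adjusted p and 215 of lower RED. A larger RED in size than that of CDK6 was found in 13.7% of the table, so that a RED of this size was not rare. RRM1 and MCM4 were among 29 genes that shared an adjusted p of 0.991, and 2560 and 2435 genes, in that order, had a RED farther from 0. Over the 5 members the median RED was −0.04, against −0.03 over all 2723 genes, where the quartiles were −0.29 and 0.22. Of the members 3 had a RED below 0, against 53.3% of all genes.

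The length of the alternative 3’ UTR differed widely between the members. UCK2 is transcribed from the plus strand of chromosome 1. Cleavage at its pPAS (165877345, exon 7) leaves 285 nt of 3’ UTR, and cleavage at its dPAS (165880855, the same exon) leaves 3795 nt. The short mRNA therefore leaves out 3510 nt, or 92.5% of the long 3’ UTR. CDK6 is on the minus strand of chromosome 7, with both PASs in exon 8. Its 3’ UTR is 684 nt long to the pPAS (92243770) and 8512 nt long to the dPAS (92235942). The 7828 nt between them made up 92.0% of the long 3’ UTR, and 11 genes of the table had PASs farther apart. These wide pairs had a RED of opposite sign, 0.99 in UCK2 and −0.60 in CDK6.
OAZ1 was at the other end. This gene is on the plus strand of chromosome 19, and exon 6 holds its pPAS (2273238), which ends a 3’ UTR of 131 nt, and its dPAS (2273323), which ends one of 216 nt. The PASs were 85 nt apart, so the short mRNA lacks 39.4% of a 3’ UTR that is short in either form, and 248 genes had PASs closer together. RRM1 and MCM4 were in between. RRM1 (chromosome 11, plus strand, exon 19) had its pPAS (4159820) and dPAS (4160105) 285 nt apart, with 3’ UTRs of 207 and 492 nt. MCM4 (chromosome 8, plus strand, exon 17) had its pPAS (48889822) and dPAS (48890483) 661 nt apart, with 3’ UTRs of 484 and 1145 nt. The short form of RRM1 leaves out 57.9% of the long 3’ UTR and that of MCM4 57.7%, near the median of 55.0% over the 2687 genes that could be placed in this way. The median distance over the table was 760 nt, with quartiles of 256 and 1757 nt.

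**Figure D2:**
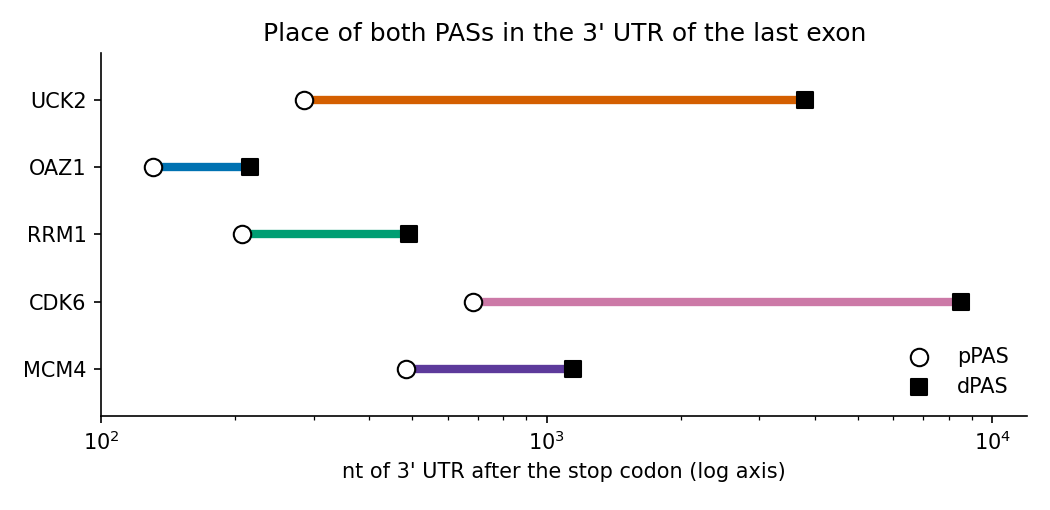
Place of the pPAS (open circle) and the dPAS (filled square) of each member, in nt of 3’ UTR after the stop codon on a log axis. The colored bar is the segment that only the long mRNA has. It runs from 285 to 3795 nt in UCK2 and from 684 to 8512 nt in CDK6, but only from 131 to 216 nt in OAZ1.

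UCK2, CDK6 and OAZ1 were also set beside the genes with PASs at a like distance. Of the 424 genes with PASs at least 2500 nt apart, 2 were called, 8 had a higher RED than UCK2, and none had a lower adjusted p. CDK6 is of the same class, and there 38 genes had a lower RED and 3 a lower adjusted p. Of the 294 genes with PASs less than 100 nt apart, 3 were called, 5 had a lower RED than OAZ1, and none had a lower adjusted p. The size of RED, whatever its sign, had a median of 0.27 in close pairs, 0.25 in pairs between these classes and 0.27 in wide pairs. These are values of the contrast that chose the members and were not tested.

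**Figure D3:**
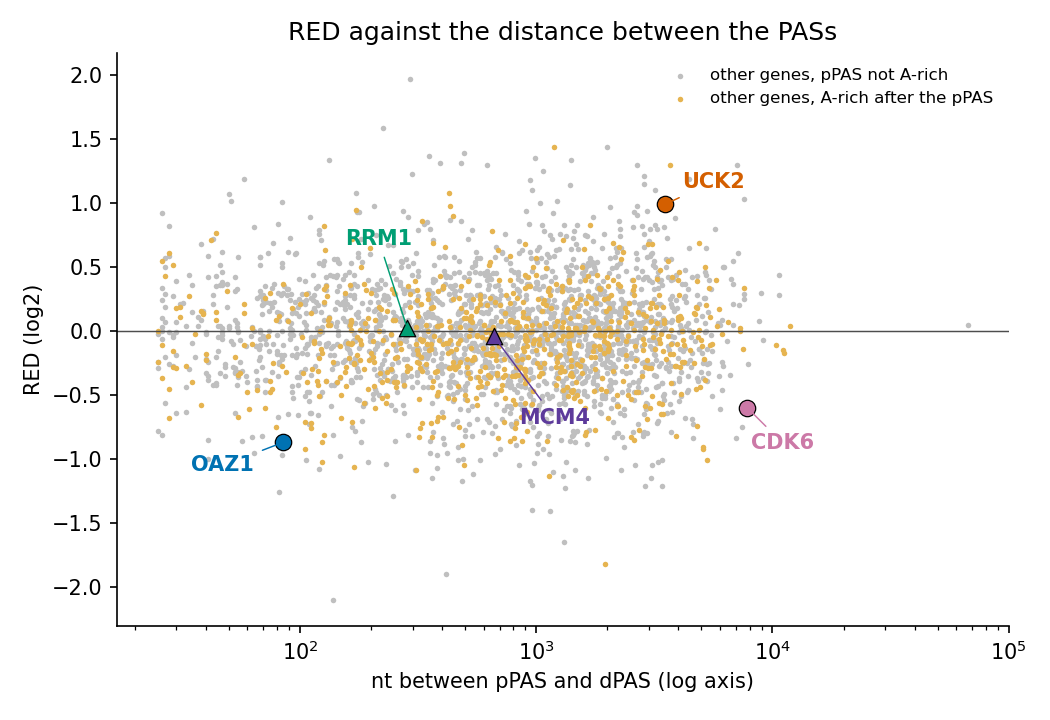
RED (vertical axis, log2) against the number of nt between pPAS and dPAS (horizontal axis, log). Grey points are genes with no A-rich sequence after the pPAS and yellow points genes with it, and members drawn as triangles (RRM1, MCM4) have it too. UCK2 at 3510 nt and CDK6 at 7828 nt lie on opposite sides of 0, and OAZ1 is at 85 nt.

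The pPASs of RRM1 and MCM4 differed in sequence from those of the other members. In RRM1, 17 of the 20 nt after the pPAS were A, and in MCM4 19 of 20. An oligo(dT) primer can anneal to such a stretch inside an mRNA, so that a read can end there without a poly(A) tail. The term A-rich is used where 12 or more of these 20 nt are A, or where 6 A follow each other, which applied to 26.7% of all pPASs and 10.2% of all dPASs. Of the 10 PASs of the members, these 2 were A-rich. Neither had AATAAA or ATTAAA in the 40 nt upstream, whereas the dPAS of each had AATAAA and was not A-rich. This layout was shared by 497 genes, or 18.3% of the table, with a median RED of −0.10 and quartiles of −0.34 and 0.10. The part of A-rich sequence in the RED of RRM1 and MCM4 was not tested. UCK2 and OAZ1, the called members, had 5 and 4 A in the 20 nt after the pPAS and 1 and 3 A after the dPAS. CDK6 had 9 A after the pPAS and 5 after the dPAS.

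AATAAA or ATTAAA was found in 40 nt at 1 of 5 pPASs and at 4 of 5 dPASs of the members, against 55.5% and 80.3% over all genes. Only the transcript strand was searched. Weaker signals that differ from AATAAA by a single letter were searched too. In the first position these were TATAAA, followed by the hexamer CATAAA, followed by the hexamer GATAAA. Those changed in the second position were AGTAAA, followed by the hexamer ACTAAA. Those changed further on were AATGAA, followed by the hexamer AATATA, then by the hexamer AATACA, and lastly by the hexamer AATAGA. With these 9 counted, 9 of the 10 member PASs had a match, and over all genes 70.8% of pPASs and 89.8% of dPASs did. Where neither AATAAA nor ATTAAA was present, the match nearest the PAS is given and marked. At the dPAS of RRM1 AATAAA is marked, and GATAAA, nearer at 17 nt, is in lower case. The pPAS of UCK2 had TATAAA at 10 nt, and its printed window also holds another TATAAA and, overlapping it, AATACA, both farther upstream and left in lower case. The pPAS of MCM4 had AATAGA at 17 nt. CDK6 had AGTAAA at both PASs, at 24 nt for the dPAS, as printed above, and at 39 nt for the pPAS, outside the printed window. With neither AATAAA nor ATTAAA at either PAS, CDK6 was 1 of 263 such genes, 9.66% of the table, and 2 of these had a lower adjusted p. The pPAS of RRM1 had no match, which says only that these letters are not in this window.

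UGUA (TGTA in DNA), the motif that CFIm25 binds, was searched over 100 nt ending at each PAS. UCK2 had 2 at its dPAS and 1 at its pPAS. Both lie close to the signal of the dPAS, at 34 and 24 nt from the PAS, and the nearer one abuts AATAAA. The window is chr1:165880818-165880847 on the plus strand, and capitals mark TGTA.
UCK2 dPAS with UGUA: ttaTGTActttgcTGTAaataaagacagac
OAZ1 had 1 UGUA at each PAS. That of the pPAS starts 28 nt upstream of it and can be read in the OAZ1 pPAS sequence above. That of the dPAS starts 75 nt upstream, just past the pPAS, and its window is chr19:2273235-2273264 on the plus strand.
OAZ1 dPAS with UGUA: tccgaattagcggTGTAtttcttgaagttt
The windows at the PASs of OAZ1 overlap, since the PASs are 85 nt apart. RRM1, CDK6 and MCM4 had no UGUA within 100 nt of either PAS, which held for 22.4% of all genes. At least 1 UGUA was present at 1345 pPASs and 1633 dPASs of the table, with a mean of 0.743 and 0.943 per window. More UGUA at the dPAS than at the pPAS, as in UCK2, was seen in 36.6% of genes, and an equal number, as in the other 4 members, in 37.6%. These counts depended on the window. With 150 nt the dPAS minus pPAS count was 0 in UCK2, 1 in OAZ1, 2 in CDK6 and −1 in MCM4. In OAZ1 the 150-nt window at the dPAS also holds the UGUA of the pPAS. With 60 nt the count was −1 in OAZ1, while RRM1 had equal counts in all 3 windows.

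The segment between the PASs is what the long mRNA gains. In UCK2 it was rich in G and C (50.2%, above 88.5% of all genes), with 15 UGUA and 4 ATTTA, the core of AU-rich elements that destabilize many mRNAs. It also had the only TGTANATA among the members, the motif of Pumilio proteins, which was in 21.3% of all segments. Per 1000 nt, UCK2 had 4.27 UGUA and 1.14 ATTTA, below the medians of 5.71 and 1.83 over all genes. The segment of OAZ1 was the reverse, with 21.2% G and C, at percentile 1.63 of all genes, and 1 UGUA and 1 ATTTA. These give 11.8 per 1000 nt each, but rest on 1 motif in 85 nt. CDK6 had 51 UGUA and 25 ATTTA in its 7828 nt, or 6.52 and 3.19 per 1000 nt. In RRM1 the segment held no UGUA and 1 ATTTA, and in MCM4 4 UGUA and no ATTTA. The called members thus differed in the length, the G and C content and the motif density of the segment that is gained or lost. A match to a motif is a description and no site was tested.

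**Figure D4:**
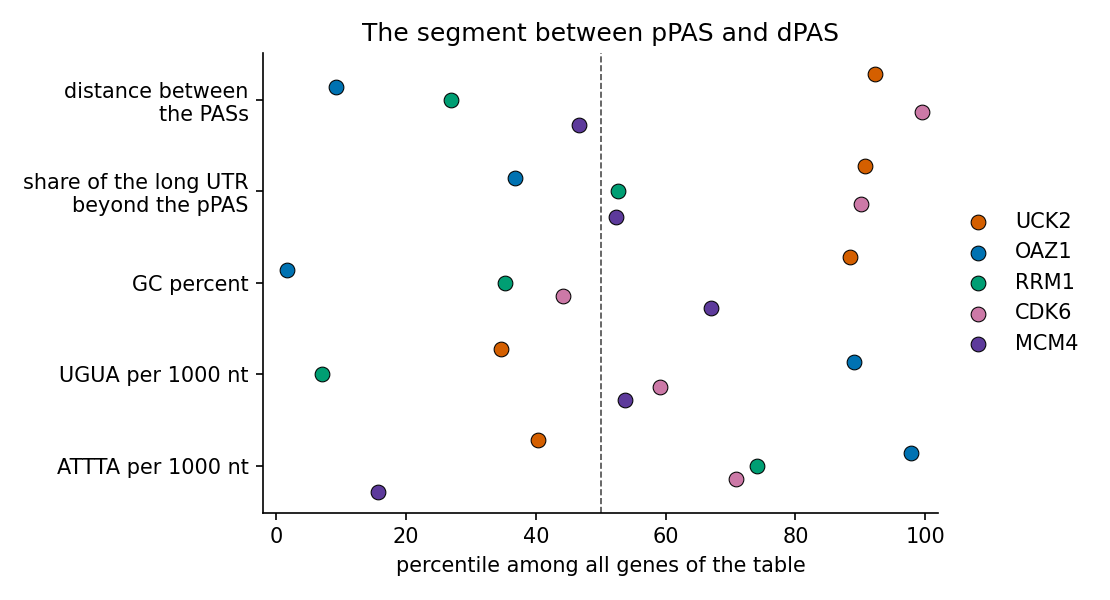
Percentile of each member among all genes, for 5 properties of the segment between pPAS and dPAS (1 row each; the share of the long 3’ UTR is over the 2687 genes placed past a stop codon). The dashed line is the median of the table. UCK2 (88.5 for G and C) and OAZ1 (1.63) are far apart in G and C, and OAZ1 is highest in ATTTA per 1000 nt.

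The other genes of the same pathways gave the surroundings. Lists of 205 further genes of pyrimidine, purine, deoxynucleotide and folate, polyamine, G1/S and replication functions had 42 in the table, and none of these was called, against 0.367% of all genes. Their lowest deposited adjusted p was 0.203. A RED below 0 was listed for 24 and above 0 for 18 of them, with a median of −0.065, beside −0.03 over all genes. The RED threshold alone was passed by 24 of the 42, 14 below and 10 above 0, or 57.1%, beside 48.8% of all genes, with 739 below and 591 above 0. The share with a RED below 0 over all genes was 53.3%.

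**Figure D5:**
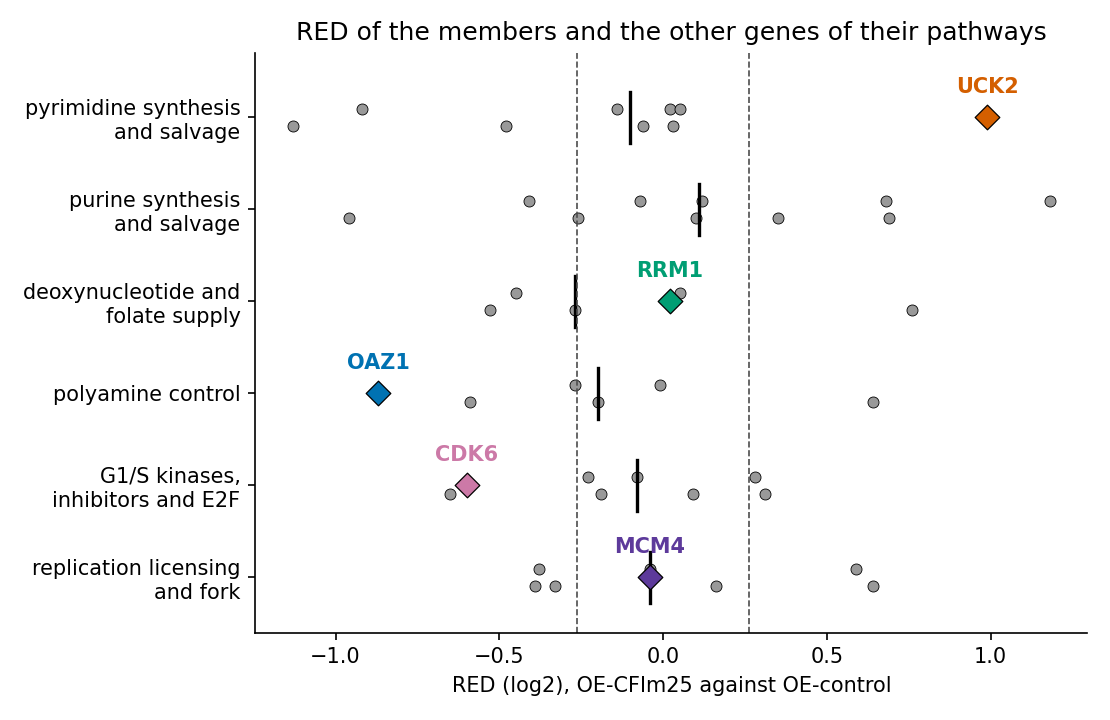
RED (horizontal axis, log2) of the other genes of each pathway list (grey points, 1 per gene) with their median (black bar), and of the members (colored diamonds). Dashed lines mark a RED of log2(1.2). UCK2 is at 0.99, and the 8 other genes of its list reach from −1.13 to 0.05. The purine genes reach from −0.96 to 1.18, the value of PRPS1, which serves both nucleotide pathways.

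The 8 genes listed with UCK2 under pyrimidine synthesis and salvage ran from −1.13 to 0.05 with a median RED of −0.10, and 5 were below 0. NME6, of the nucleoside diphosphate kinase family, had a RED of −0.92 (deposited adjusted p of 0.203), with 17 A in the 20 nt after its pPAS. NT5C3A, a nucleotidase that breaks down pyrimidine nucleotides, had a RED of −0.48 (deposited adjusted p of 0.527), with 16 A after its pPAS. The lowest RED was that of TK2, the mitochondrial thymidine kinase, at −1.13 (deposited adjusted p of 0.647), a gene named after its value was seen. Among 10 purine genes the median RED was 0.11, with values from −0.96 to 1.18 and 4 genes below 0. PRPS1, which makes the ribose donor of purine and pyrimidine synthesis, had the highest RED of all 42, at 1.18 (deposited adjusted p of 0.292). AK3, a mitochondrial adenylate kinase, had one of 0.68 (deposited adjusted p of 0.398). A-rich sequence followed the pPAS in 3 of the 10 purine genes, AK3 among them.

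For the deoxynucleotide and folate genes the median RED was −0.27 over 5 genes besides RRM1. RRM2B, a small subunit that pairs with RRM1, had a RED of 0.76 but a deposited adjusted p of 0.769. SHMT2, which supplies carbon units from serine, had a RED of −0.45 (deposited adjusted p of 0.491).
Of 5 further polyamine genes, 4 had a RED below 0, and the median was −0.20. OAZ2, the antizyme paralog of OAZ1, had a RED of −0.20 with a deposited adjusted p of 0.978, from PASs 896 nt apart against 85 nt in OAZ1. MAT2B, a regulatory subunit of the enzyme that makes S-adenosylmethionine, had a RED of −0.59 (deposited adjusted p of 0.536). EIF5A2, a translation factor modified with spermidine, had one of 0.64 (deposited adjusted p of 0.848), with 19 A in the 20 nt after its dPAS. The difference between OAZ1 and any of these genes was not tested.

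Of 7 genes of the G1/S list besides CDK6, none was called and the median RED was −0.08. E2F6, a repressor of the E2F family, had the lowest RED of these, with a value of −0.65 (deposited adjusted p of 0.378). LIN54, the DNA-binding subunit of the DREAM complex, had a RED of 0.28 (deposited adjusted p of 0.917). A-rich sequence followed the pPAS in 4 of these 7 G1/S genes, LIN54 among them. The replication list had 7 genes besides MCM4, with a median RED of −0.04, equal to that of MCM4. MCMBP, which binds MCM subunits, had a RED of 0.64 (deposited adjusted p of 0.769) and RFC1, the large subunit of the clamp loader, one of −0.39 (deposited adjusted p of 0.795). None of these 7 had A-rich sequence after its pPAS, against 26.7% of all pPASs, whereas MCM4 had 19 A in 20. Of 12 genes that are close relatives or partner subunits of the members, RRM2B and OAZ2 were those with a row, and the other 10 were not analysed here.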

How the data were processed

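QuantSeq libraries of 3 OE-CFIm25 and 3 OE-control samples were made by the authors, who aligned read 2 with STAR 2.7.7a to hg19, matched read ends to PASs of PolyA_DB and compared the 2 most used PASs in the last 3’ UTR of each gene. The deposited table gives the authors' own comparison only: RED, a log2 value rounded to 2 decimals, and an adjusted p-value, headed Fisher in the column and DEXSeq in the sheet title and the methods. The adjustment method was not given in the sources used here. These are printed as the authors' values, and no test was run on them. The deposited read counts per library (3525582 to 3845872 PAS-supporting reads in genes, 6 libraries) match no sample by name, so depth is not given by group.

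After 1 repeated row was removed, calls were made at RED beyond log2(1.2) and an adjusted p under 0.05. Sequence came from GRCh37 (the same build as hg19). Positions were placed with GENCODE release 44 mapped to GRCh37, in the canonical transcript where its last exon held both PASs. As a check of the build, AATAAA or ATTAAA was in 55.5% of 40-nt windows at pPASs but in 3.78% of windows 200 nt upstream. Motif counting was tested on simulated sequence. Members and lists were chosen with earlier results of these data known. The text names the members, 12 close relatives or partner subunits of theirs where they had a row, and the 2 genes of lowest adjusted p of each list, of which 1 is not reported here. Python 3.11.15, numpy 2.4.6, pandas 2.3.3 and pysam 0.24.0 were used, and matplotlib 3.10.9 drew the figures.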

Additional observations from a re-analysis of the deposited data

How the results depend on the processing

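The 2 calls, UCK2 and OAZ1, were the same with no RED threshold and with one of log2(1.5). They were also the same at an adjusted p under 0.10, where 0.624% of all genes were called. The share of all genes is not given for the first 2 settings. The members were chosen by these same values, so nothing is read from the calls staying the same. The mean RED of the members was −0.10. For the 42 other pathway genes the mean RED was −0.0548, and the median was −0.05 over PASs at least 100 nt apart. With 9 further hexamers, 9 member PASs had a poly(A) signal in place of 5, and windows of 30 or 50 nt left 5. UGUA at the dPAS minus that at the pPAS depended on the window. In 150 nt it was 0 for UCK2, 1 for OAZ1, 2 for CDK6 and −1 for MCM4, and in 60 nt it was −1 for OAZ1. Longer windows take in more sequence. In OAZ1 the UGUA of the dPAS starts 75 nt upstream, so the window of 60 nt leaves it out. The PASs of OAZ1 are 85 nt apart, and the window of 150 nt at its dPAS also takes in the UGUA of its pPAS. Beyond this the cause was not tested. Both other rules for A-rich sequence left the same count of 2 PASs.
No paired analysis was possible because single samples have no value in the table, only the groups' difference. No replicate could therefore be left out, and no pseudocount or filter on reads was tried.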

Other observations

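The PASs of the 42 other pathway genes are described here beside those of the whole table, with no test. A-rich sequence followed 28.6% of their pPASs, against 26.7% over all genes, and the median distance between their PASs was 752 nt, against 760 nt. AATAAA or ATTAAA stood at 59.5% of their pPASs and 69.0% of their dPASs, against 55.5% and 80.3% over all genes. With the 9 further hexamers counted, 92.9% of their dPASs had a match, against 89.8%. The segment between their PASs had a median of 5.32 UGUA per 1000 nt, against 5.71.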
